A study of Mus musculus with 24 samples.

Results

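The genes described here are those of respiratory complex I whose symbols begin with Nduf, its nuclear-encoded subunits and the assembly factors named Ndufaf. A gene was a member when a probe for it had a detection p-value under 0.05, the array software's measure of signal above negative controls, on at least 3 of the 24 arrays. Of 40 Nduf genes with a probe 39 passed, among 9558 genes that passed in the whole series. They comprised 32 subunits, 5 assembly factors (Ndufaf1, Ndufaf3, Ndufaf4, Ndufaf5 and Ndufaf7) and 2 further symbols. Those were Ndufa4, now assigned to complex IV, and the transcribed pseudogene Ndufs5-ps, whose probe may share sequence with Ndufs5. The gene left out, Ndufs1, a core subunit that carries iron-sulfur clusters, was detected on 0 of 24 arrays, with a lowest detection p of 0.213. Ndufs5, Ndufa11, Ndufb1, Ndufaf2, Ndufaf6, Ndufaf8 and Ndufa4l2 were not analysed here, and the mitochondrially encoded subunits carry other symbols.

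The cells were NIH 3T3 L1, a clonal mouse fibroblast line that accumulates fat in culture when given inducing hormones. Total RNA was hybridised to Illumina beadchips on days 0, 2, 4, 6, 8, 10, 14 and 18, with 3 replicates per day. Day 0 was labelled undifferentiated, days 2 and 4 differentiating and the later days maturating. For days 0, 2 and 4 the treatment given was differentiation medium with IBMX, a phosphodiesterase inhibitor, together with insulin and dexamethasone, a glucocorticoid; for days 6 to 18 a maturation medium with insulin was added. Medium and time changed together and cannot be told apart, and the labels leave unsaid whether the day 0 cells had already received the inducers. Nothing in the labels says that replicates were separate cultures, so the p-values measure only the spread between these samples, which may be technical.

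Complex I is the entry point of electrons from NADH into the respiratory chain. Its peripheral arm holds the N module, which oxidises NADH, and the Q module, which passes the electrons to ubiquinone. Its membrane arm, with a proximal and a distal part, pumps protons. Core subunits carry out the catalysis and accessory subunits surround and stabilise them, while assembly factors help to build the complex and are absent from the finished enzyme. Differentiation of this line into fat cells is known for a growth of mitochondrial mass.

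The labelled identity was checked against marker genes. Each of the 10 adipocyte markers was called higher on day 18 than on day 0, with a median log2 change of 3.34. Of the 7 preadipocyte and fibroblast markers 5 were called lower on day 18 than on day 0, but all 7 were called higher on day 18 than on day 4, with a median log2 change of 2.25. Among brown adipocyte markers Cidea rose from a mean of 4.49 on day 0 to 9.02 on day 18 and Cox8b from 4.38 to 12.79, whereas Elovl3 stood at 4.40 on day 0, 7.32 on day 4 and 4.44 on day 18 (limma adjusted p = 0.752 for day 18 against day 0). Ucp1, their defining gene, was detected on 0 of 24 arrays. The measured macrophage markers (Adgre1 and Ptprc) and endothelial markers (Pecam1, Cdh5 and Kdr) were likewise detected on 0 arrays. Among skeletal muscle markers Myod1, Ckm and Actn2 were detected on 0 arrays, but Myog on 19 of 24. Among liver markers Alb and Ttr were detected on 0 arrays, but Apoa1 on 4. In bulk RNA a change in the number of cells of a type and a change in RNA per cell cannot be told apart, and the part of these marker changes in the results on complex I was not tested.

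Replicate arrays also differed from each other by replicate number, which bears on several members below. In a fit with the replicate number as a term, chosen after the data were seen, 22 of 39 members differed between replicate numbers (limma, Benjamini-Hochberg adjusted p under 0.05), against 47.4% of all genes. For 5 members the replicate numbers were more than 1 log2 unit apart on average over the days, which held for 2.69% of all genes. All 5 belong to the distal membrane arm.

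Promoter windows were available for 36 of the 39 members, as 38 windows of 300 bases running from 250 before to 50 after the annotated start site (RefSeq, build GRCm38.p6). Each was searched on both strands for the letters of 4 elements known from genes of the respiratory chain. The letters AAGATGGC, the core of a YY1 site, stood in 7 of 36 members (19.4%), against 3.19% of 27025 genes with a window. All 7 matches were subunits, all lay on the gene's own strand and all began 23 to 39 bases after the start site. The matched letters include ATG, and their place relative to the start of the coding sequence was not tested. The stretch from 21 to 50 bases after the start site is shown for these 7 genes to let the shared letters, in capitals, be compared.
Ndufa3 (chr7:3617393-3617422, plus strand): acAAGATGGCcgggagtaagtacaggtttg
Ndufa9 (chr6:126849095-126849124, minus strand): ttgtgggagAAGATGGCggccgccgtccgc
Ndufb8 (chr19:44555393-44555422, minus strand): tgaaccgcggagaaggtgAAGATGGCtgcc
Ndufc1 (chr3:51408906-51408935, minus strand): acAAGATGGCgccgtccgtagtgctgcgct
Ndufs4 (chr13:114388045-114388074, minus strand): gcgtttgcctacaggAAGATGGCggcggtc
Ndufs6 (chr13:73328433-73328462, minus strand): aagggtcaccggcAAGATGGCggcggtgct
Ndufs7 (chr10:80249469-80249498, plus strand): ggccAAGATGGCggcgctggcgggtgagtg

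The NRF1 letters GCGCATGCG were found in 3 of 36 members (8.33%), against 1.95% of all genes with a window, and in 2 of 5 assembly factors. They are shown because Ndufaf4 and Ndufaf5, which both carry them, had unlike time courses. In both assembly factors the match is the palindrome of 10 letters, which both strands match. It begins 113 bases before the start site of Ndufaf4 and 17 bases after that of Ndufaf5, and in Ndufa8 the match on the opposite strand begins 9 bases before the start site.
Ndufaf4, 250 bases before the start site (chr4:24897833-24898082, plus strand): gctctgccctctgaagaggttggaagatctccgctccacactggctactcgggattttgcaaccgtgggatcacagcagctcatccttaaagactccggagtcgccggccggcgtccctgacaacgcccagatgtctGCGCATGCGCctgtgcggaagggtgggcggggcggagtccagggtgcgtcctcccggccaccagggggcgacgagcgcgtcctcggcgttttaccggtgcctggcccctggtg
Ndufaf5, 11 to 40 bases after the start site (chr2:140170656-140170685, plus strand): ccgttgGCGCATGCGCctaatagaaaccat
Ndufa8, 60 bases before the start site (chr2:36049339-36049398, minus strand): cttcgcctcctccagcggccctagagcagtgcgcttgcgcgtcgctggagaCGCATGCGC

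The ETS letters CCGGAAG, the core of GABP sites, occurred in 5 of 36 members (13.9%), namely Ndufs3, Ndufs8, Ndufb6, Ndufb7 and Ndufaf1, against 9.93% of all genes with a window. In Ndufs3, shown as the core subunit of this set that changed most, a copy begins 27 bases before the start site and another, on the opposite strand, 2 bases after it.
Ndufs3, 60 bases before the start site (chr2:90904722-90904781, minus strand): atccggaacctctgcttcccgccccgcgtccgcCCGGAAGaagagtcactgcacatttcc
The oestrogen-related receptor letters TCAAGGTCA were in 0 of 36 members and in 0.466% of all genes with a window. These are matches of letters, not shown sites.

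Most complex I genes were higher in differentiating and maturating cells than on day 0, and most of the rise lay between day 0 and day 4. Values throughout are log2 intensities after background correction and quantile normalisation, changes are differences between day means of 3 arrays with the standard error of the fit, and a gene is called when its Benjamini-Hochberg adjusted p over all 9558 genes in the limma fit is under 0.05. Over the course 33 of 39 members changed in the moderated F test, against 74.5% of all genes. On day 18 against day 0, 31 members were called higher, against 23.2% of all genes, and 0 lower, against 34% of all genes, with 36 higher and 0 lower at an unadjusted p under 0.05. The median change of the 32 subunits was 0.98, all 32 differences were positive, and the median over all genes was -0.08. A member's highest and lowest day means were 1.22-fold to 3.94-fold apart, and for 22 members the span was at least 2-fold.

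**Figure D1:**
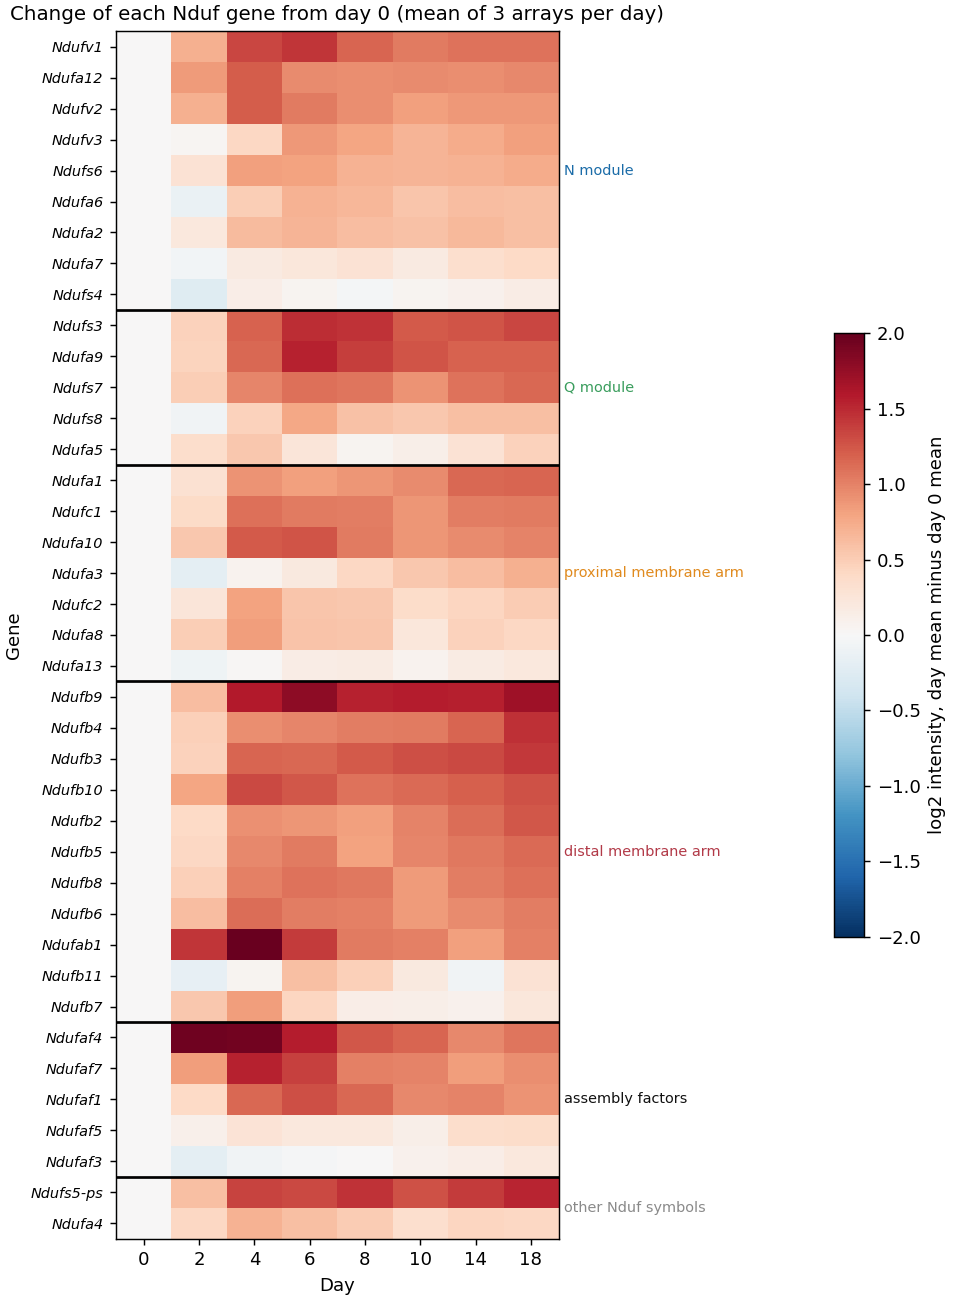
Heat map of the day mean minus the day 0 mean (log2 intensity, colour scale from -2 to 2) for the 39 Nduf genes in rows, grouped by their place in complex I, over the 8 days in columns. Ndufb9, Ndufab1 and Ndufaf4 show the deepest red, Ndufab1 and Ndufaf4 fade after day 4, and Ndufs4, Ndufa13 and Ndufaf3 stay pale.

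For subunits the rise took place in 2 steps with medians of similar size, though the steps differed within single genes. The step to day 2 minus the step to day 4 had a median of -0.20 and was positive in 11 of 32 subunits. From day 0 to day 2, 25 of 39 members were called higher, against 25% of all genes, and from day 2 to day 4 again 25, against 18.7% of all genes. The subunits' median change was 0.43 in the step to day 2 and 0.52 in the step to day 4. In the step to day 2 only Ndufs4 was called lower, against 26.5% of all genes, and with the replicate number as a block also Ndufa3 (-0.19 ± 0.08, adjusted p = 0.0466 in limma), against 31% of all genes. The block added calls of a rise to day 2 for Ndufb2, Ndufb4, Ndufb5 and Ndufb9, with changes of 0.40 to 0.61, which made 29 members higher, against 30.3% of all genes. In the step to day 4 it raised the count from 25 to 35, against 24.3% of all genes. In the step to day 4, 0 members were called lower in limma and 0 had a lower value at an unadjusted p under 0.05, against 22.7% of all genes called. Over both steps together, day 4 against day 0, 30 members were called higher, against 28.9% of all genes, and 0 lower, also at an unadjusted p under 0.05, against 31.2% of all genes. With the block 33 were higher, against 33.8% of all genes.

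In the N module 8 of 9 subunits were called higher on day 18 than on day 0, with a median change of 0.75. Ndufv1, the core subunit that binds NADH and flavin, had arrays at 11.52, 11.59 and 11.69 on day 0, at 12.26, 12.33 and 12.33 on day 2 and at 12.93, 12.99 and 12.88 on day 4. It reached 13.03, 13.11 and 12.96 on day 6 and stood at 12.64, 12.77 and 12.64 on day 18. The first 3 sampled days did not overlap each other. Ndufv1 rose by 1.08 ± 0.08 between day 0 and day 18 (2.12-fold, limma adjusted p = 1.17e-10). Ndufv2, its core partner with an iron-sulfur cluster, rose by 0.87 ± 0.08 (limma adjusted p = 1.34e-08). Ndufa12, which takes the place of an assembly factor late in assembly, rose by 0.85 ± 0.14 in the step to day 2 and by 0.37 ± 0.14 in the step to day 4, the latter with an adjusted p of 0.0488. That second call was lost with median scaling (0.41, adjusted p = 0.0536) and on the authors' normalised table (0.34, adjusted p = 0.0604).

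Ndufs4, an accessory subunit added late whose loss causes mitochondrial disease in mice and people, went lower first. Its arrays read 11.63, 11.43 and 11.47 on day 0, 11.30, 11.24 and 11.24 on day 2, and 11.72, 11.55 and 11.66 on day 4. All 3 arrays of day 2 lay below those of both neighbours. Ndufs4 fell by 0.25 in the step to day 2 (SE 0.08, limma adjusted p = 0.0103) and rose by 0.38 ± 0.08 in the step to day 4 (adjusted p = 0.000391). With median scaling in place of quantile normalisation the step to day 2 was -0.09 with an adjusted p of 0.466, and the call was also lost on the mean of its probes and without replicate 1 of day 0. Its 3 other probes, detected on all 24 arrays, gave -0.21, -0.15 and -0.02 in that step, none of them called. Between day 0 and day 18 it changed by 0.15 ± 0.08 (adjusted p = 0.102, and 0.035 with the replicate number as a block). Ndufa6, which anchors an acyl carrier protein on the complex, changed by -0.13 ± 0.09 in the step to day 2 (adjusted p = 0.25) and rose by 0.63 ± 0.09 in the step to day 4. Ndufv3 and Ndufa7 had step-to-day-2 changes of 0.03 ± 0.10 and -0.05 ± 0.10, neither called.

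All 5 measured Q module subunits were called higher on day 18 than on day 0, with a median change of 1.15. Ndufs3, a core subunit at the base of the peripheral arm, had day 0 arrays at 10.77, 10.78 and 10.84, day 4 arrays at 11.91, 11.97 and 12.04, and day 18 arrays at 12.07, 12.20 and 12.12. No array of day 0 came within 1 log2 unit of any array of day 4 or day 18. Ndufs3 rose by 1.34 ± 0.09 (2.52-fold, limma adjusted p = 3.95e-11). Ndufs7, which carries the last iron-sulfur cluster before ubiquinone, rose by 1.15 ± 0.08 (adjusted p = 5.49e-11), with nearly equal steps of 0.49 to day 2 and 0.48 to day 4. Ndufs8, a further core iron-sulfur subunit, changed by -0.08 ± 0.10 in the step to day 2 (adjusted p = 0.581), rose by 0.53 ± 0.10 in the step to day 4 and ended 0.60 ± 0.10 above day 0 (adjusted p = 4.55e-05). The 5 measured core subunits were thus all called higher on day 18 than on day 0, with a median of 1.08, and the 27 accessory subunits had a median of 0.96 with 20 called.

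Ndufa9, a nucleotide-binding subunit where the peripheral arm meets the membrane, had its peak on day 6. Its arrays rose from 11.77, 11.82 and 11.75 on day 0 through 12.96, 12.89 and 12.92 on day 4 to 13.38, 13.21 and 13.33 on day 6, then stood at 13.01, 12.90 and 12.97 on day 18. The day 6 arrays all lay above those of day 4 and of day 18. It gained 0.38 ± 0.07 from day 4 to day 6 (limma adjusted p = 0.000209) and fell by 0.35 from day 6 to day 18 (SE 0.07, adjusted p = 0.000417). Ndufa5, an accessory subunit of the same module, behaved otherwise, with a day 18 change of 0.45 ± 0.08 (adjusted p = 9.75e-05) and a dip between. It fell by 0.30 from day 4 to day 6 (SE 0.08, adjusted p = 0.0104). A second probe for Ndufa5 gave 1.03 ± 0.70 between day 0 and day 18, and on the mean of its probes the change had an adjusted p of 0.0755.

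**Figure D2:**
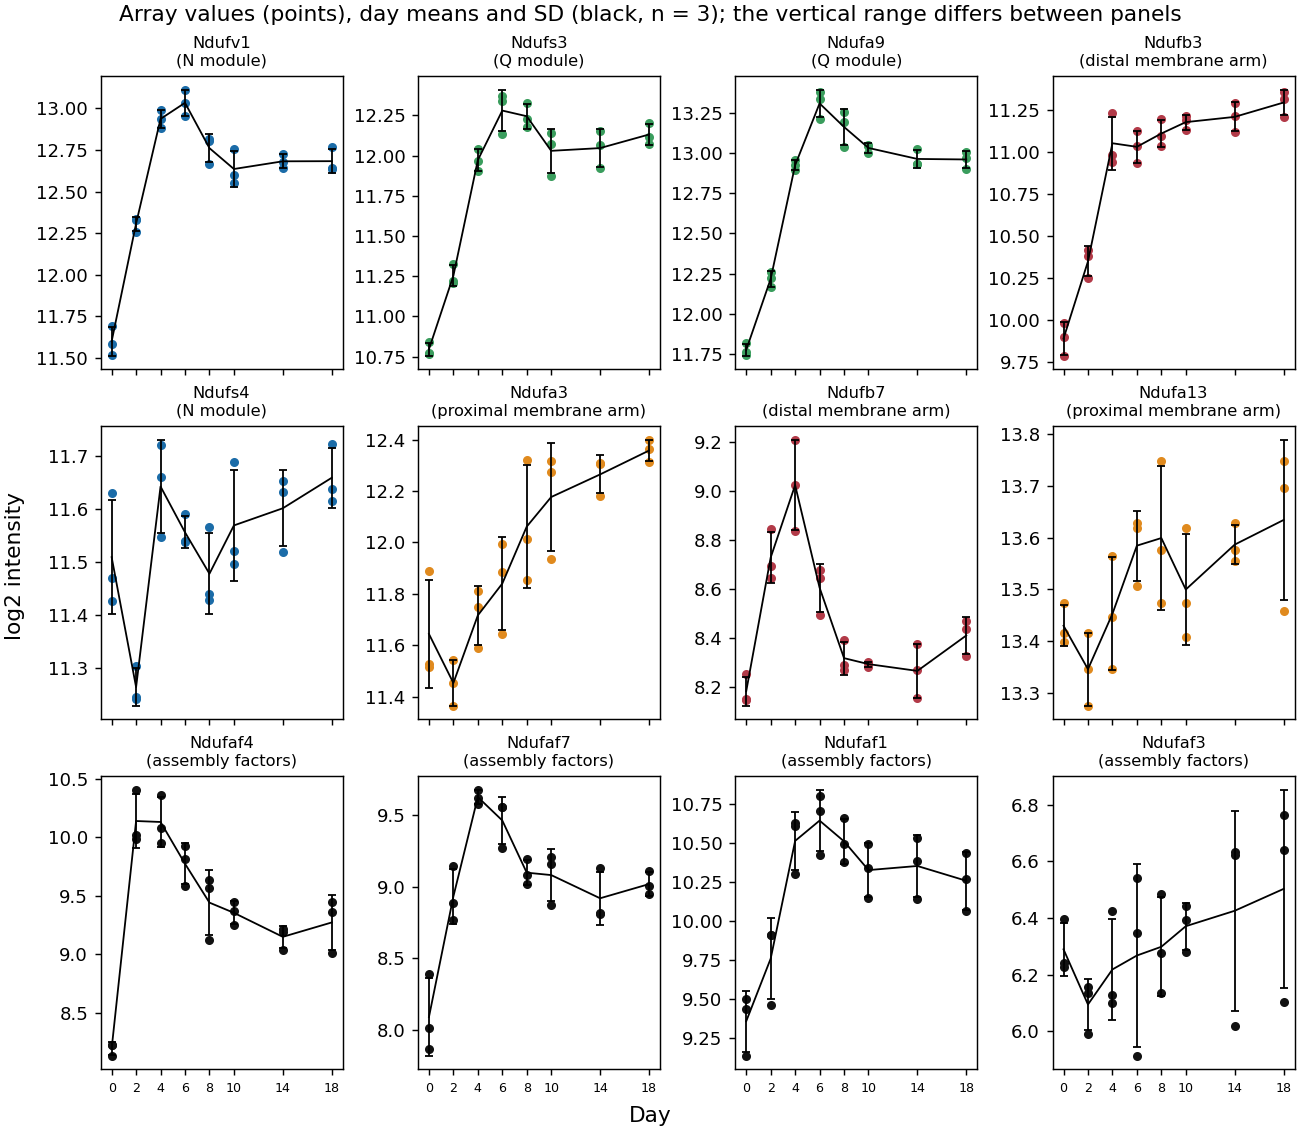
Log2 intensity (vertical axis, its range differing between panels) against day for 12 Nduf genes; coloured points are the 24 arrays and the black line with bars gives the day mean and SD of 3 arrays. Ndufv1, Ndufs3 and Ndufa9 rise to day 6, Ndufb3 and Ndufa3 are highest on day 18, Ndufb7 returns close to its start, and Ndufaf4 is at its top by day 2.

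In the proximal membrane arm 6 of 7 subunits were called higher on day 18 than on day 0, with a median of 0.71. Ndufa1, a small membrane subunit needed for assembly, rose by 1.16 ± 0.08 (limma adjusted p = 5.24e-11), and Ndufc1 by 1.03 ± 0.09. Ndufa3, another small membrane subunit, was late: its day 4 arrays (11.81, 11.59 and 11.75) overlapped those of day 0 (11.89, 11.52 and 11.53), while the day 18 arrays (12.40, 12.31 and 12.36) lay above both. It rose by 0.64 ± 0.13 from day 4 to day 18 (adjusted p = 0.000297). Ndufa8, an intermembrane space subunit with paired cysteines, was 0.42 ± 0.10 above day 0 on day 18 after it had fallen by 0.42 since day 4 (SE 0.10, adjusted p = 0.00106). Ndufa13, also known as GRIM-19, was the member with the smallest span. Its change between day 0 and day 18 was 0.20 ± 0.09 (adjusted p = 0.0587), and 0.0341 was its adjusted p with the replicate number as a block. Its arrays lay between 13.28 and 13.75 on all days, near the bright end of the array's scale, where intensity can be compressed.

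The distal membrane arm had a median change of 1.13 between day 0 and day 18, with 6 of 11 subunits called higher. Ndufb3, an accessory subunit of this arm, had arrays at 9.98, 9.90 and 9.79 on day 0, at 10.98, 10.94 and 11.24 on day 4 and at 11.32, 11.21 and 11.36 on day 18. Day 0 lay apart from both later days, while single arrays of day 4 and day 18 overlapped. It rose by 1.41 ± 0.09 (2.66-fold, limma adjusted p = 2.3e-11). Ndufb8 and Ndufb6 rose by 1.10 ± 0.09 and 1.03 ± 0.09. Ndufb7, an intermembrane space subunit with paired cysteines, rose and then came back. Its arrays were at 8.14, 8.25 and 8.15 on day 0, 9.02, 8.84 and 9.21 on day 4 and 8.47, 8.32 and 8.43 on day 18. It fell by 0.61 from day 4 to day 18 (SE 0.09, adjusted p = 8.39e-06). Its remaining rise of 0.23 ± 0.09 over day 0 (adjusted p = 0.0372) was not called with median scaling (0.05, adjusted p = 0.626) nor without replicate 1 or replicate 3 of day 0 or of day 18, where the adjusted p lay between 0.0896 and 0.115. Ndufb11, whose arrays lay between 5.32 and 6.34, near the lowest signal of a detected probe (4.75 to 4.91 over the arrays), changed by 0.28 ± 0.17 (adjusted p = 0.173). A second probe for Ndufb11, detected on 11 arrays, gave the opposite sign, -0.32 ± 0.17 (limma adjusted p = 0.118).

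The other 6 genes of this arm, Ndufab1, Ndufb2, Ndufb4, Ndufb5, Ndufb9 and Ndufb10, shared a feature: replicate 1 was the lowest array on all 8 days. Ndufb4, whose probe may also bind transcripts of its copies Ndufb4b and Ndufb4c, read 5.67 in replicate 1, 7.54 in replicate 2 and 7.05 in replicate 3 on day 0, and 7.25, 9.02 and 8.36 in the same order on day 18. Replicate 1 of day 18 was thus below replicate 2 of day 0, although each numbered series rose. The change was 1.45 ± 0.67 with an adjusted p of 0.0717, and 1.45 ± 0.11 with an adjusted p of 2.54e-10 when the replicate number was a block in the limma fit. Ndufb2 went from an adjusted p of 0.0742 to 1.38e-11 in the same way, at a change of 1.24, and Ndufb5 from 0.0767 to 3.23e-09, at a change of 1.13. Ndufb9, which like Ndufa6 belongs to the family that binds acyl carrier proteins, had the largest change of the members between day 0 and day 18. Its arrays were 8.15, 9.33 and 9.24 on day 0 and 9.86, 10.92 and 11.04 on day 18, a rise of 1.70 ± 0.54 (adjusted p = 0.0112). Without replicate 1 of day 0 that change was 1.32 with an adjusted p of 0.0677. Ndufb10 rose by 1.27 ± 0.30 (adjusted p = 0.000942). With the block, 37 of 39 members were called higher on day 18 than on day 0, 31 of them subunits, against 27% of all genes.

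Ndufab1, the mitochondrial acyl carrier protein that also serves fatty acid and iron-sulfur cluster synthesis, was highest on day 4, with all 3 numbered series lower on day 18. Its arrays were 5.01, 5.61 and 5.63 on day 0, 6.11, 7.32 and 7.10 on day 2, 6.54, 7.86 and 7.78 on day 4, and 5.96, 6.96 and 6.37 on day 18. The value of 5.01 was the lowest array of any member. It lay near the lowest signal of a detected probe (4.75 to 4.91 over the arrays), where differences are compressed. Within each replicate number the day 18 array lay between those of day 0 and day 4. Ndufab1 rose by 1.43 ± 0.47 in the step to day 2 (limma adjusted p = 0.0153). From day 4 to day 18 it changed by -0.96 ± 0.47 (adjusted p = 0.0991), and with the replicate number as a block the adjusted p was 4.3e-06. Its day 18 change from day 0, 1.02 ± 0.47, went from an adjusted p of 0.0742 to 1.63e-06 with the block.

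**Figure D3:**
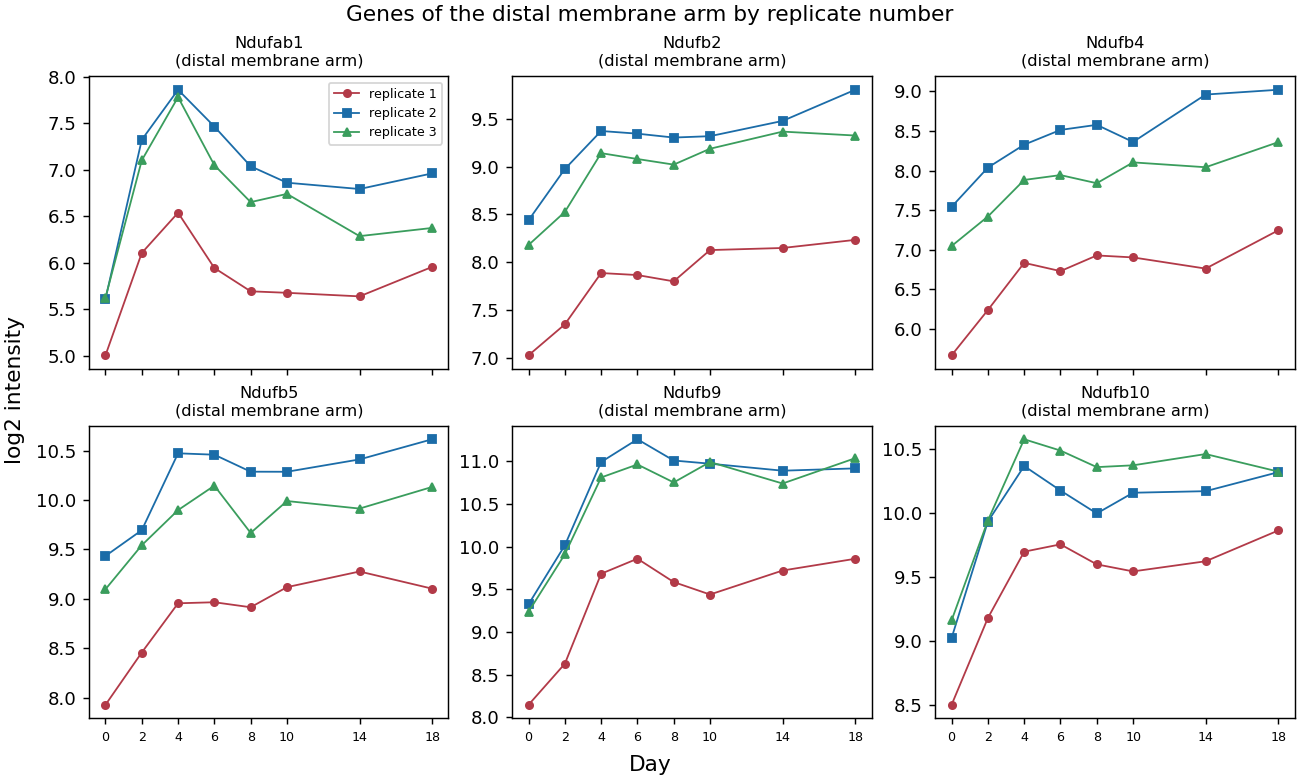
Log2 intensity against day for 6 genes of the distal membrane arm, with a line for each replicate number (circles, squares and triangles for replicates 1, 2 and 3). Replicate 1 is the lowest line on all 8 days in each panel, and the lines run in a similar course.

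Among the 5 assembly factors, 4 were called higher on day 18 than on day 0, with a median change of 0.90, and their time courses were unlike. The roles given for them are known from human cells. Ndufaf4, which acts on the Q module early in assembly, had arrays at 8.14, 8.23 and 8.23 on day 0 and at 10.41, 9.99 and 10.02 on day 2. The following days gave 10.36, 9.95 and 10.08 on day 4, 9.93, 9.81 and 9.58 on day 6, and 9.63, 9.57 and 9.12 on day 8. On day 10 the arrays were at 9.45, 9.25 and 9.37, on day 14 at 9.22, 9.19 and 9.04 and on day 18 at 9.45, 9.36 and 9.01. The whole rise of Ndufaf4 thus lay before day 2, every later array stayed above day 0, and all day 18 arrays were below all arrays of day 2 and day 4. It rose 3.84-fold by day 2 (1.94 ± 0.15, limma adjusted p = 7.46e-10), changed by -0.01 ± 0.15 to day 4, and fell by 0.86 from day 4 to day 18 (SE 0.15, adjusted p = 5.62e-05).

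Ndufaf3, which is known to bind Ndufaf4 during Q module assembly, did not pass the test in any of these comparisons. Its arrays were 6.23, 6.24 and 6.40 on day 0, 6.13, 5.99 and 6.16 on day 2, and 6.10, 6.76 and 6.64 on day 18. Days 0 and 18 overlapped, and all 3 arrays of day 2 lay below those of day 0. Its changes were -0.19 ± 0.18 by day 2 (limma adjusted p = 0.404) and 0.21 ± 0.18 by day 18 (adjusted p = 0.337).

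Ndufaf7, a methyltransferase of the mitochondrial matrix, rose in both steps. It read 8.39, 8.01 and 7.87 on day 0, 9.15, 8.89 and 8.77 on day 2, 9.68, 9.58 and 9.62 on day 4, and between 8.95 and 9.11 on day 18. Its steps were 0.84 ± 0.13 and 0.69 ± 0.13 (limma adjusted p = 1.9e-05 and 0.000252), and from day 4 to day 18 it fell by 0.61 (SE 0.13, adjusted p = 0.000688). Day 18 was back in the range of day 2. Ndufaf1, a member of the membrane arm assembly complex, rose by 0.40 ± 0.15 and then 0.75 ± 0.15, and ended 0.90 ± 0.15 above day 0 (adjusted p = 3.61e-05). Its change from day 4 to day 18 was -0.25 ± 0.15 (adjusted p = 0.18, and 0.0237 with the replicate number as a block). Ndufaf5, a hydroxylase that modifies Ndufs7, changed by 0.11 ± 0.11 in the step to day 2 and rose by 0.37 ± 0.11 by day 18 (adjusted p = 0.00648). That call was lost with median scaling (0.18, adjusted p = 0.225) and on the mean of its probes (0.53, adjusted p = 0.189).

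The size of both steps was then compared within each gene, as the change from day 0 to day 2 minus the change from day 2 to day 4, a contrast chosen after the day means had been seen. Ndufaf4 was the only member called for a larger step to day 2 (1.95 ± 0.26, limma adjusted p = 4.27e-06), against 18.1% of all genes. Called for a larger step to day 4 were 3 members, Ndufa6 (-0.76 ± 0.16, adjusted p = 0.000655), Ndufs4 (-0.63 ± 0.13, adjusted p = 0.000767) and Ndufs8 (-0.61 ± 0.18, adjusted p = 0.0108), against 18.5% of all genes. The call of Ndufs8 was lost with median scaling (-0.47, adjusted p = 0.0996). With the replicate number as a block, 3 members had a larger step to day 2, Ndufab1 and Ndufa12 with Ndufaf4, against 24% of all genes, and 7 a larger step to day 4, against 24.4% of all genes. Both shares of members lay below those of all genes without the block. The median difference was -0.20 for subunits, -0.06 for assembly factors and -0.02 over all genes.

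**Figure D4:**
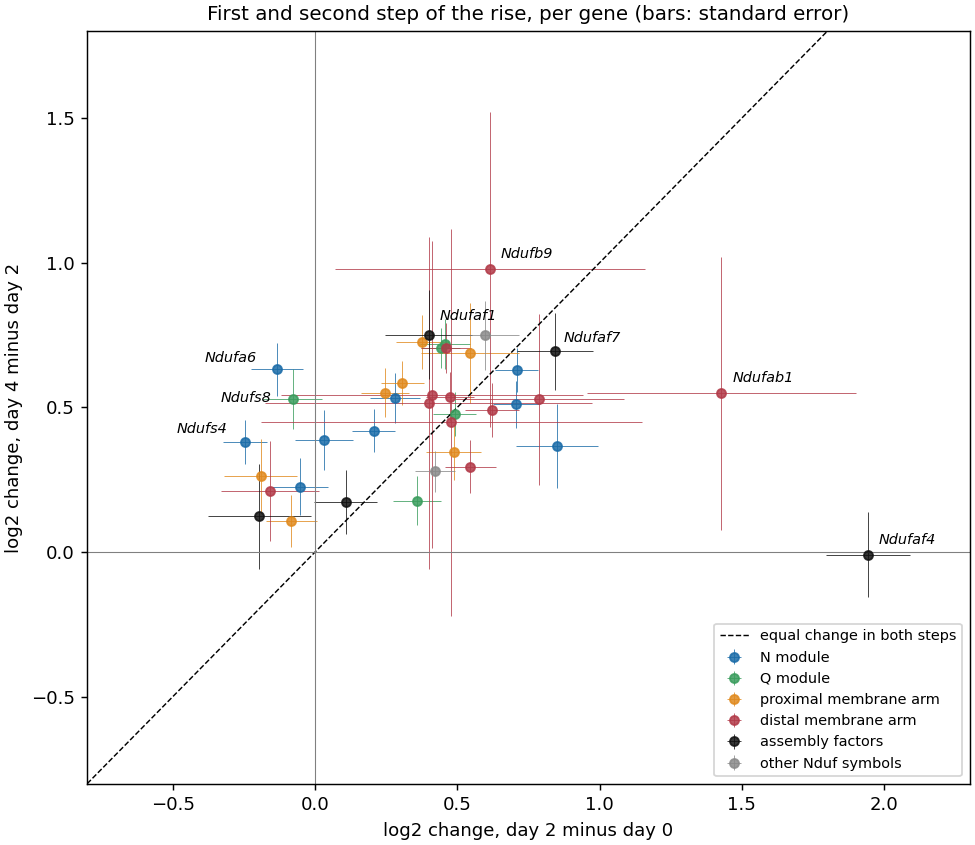
Log2 change from day 2 to day 4 (vertical axis) against log2 change from day 0 to day 2 (horizontal axis) for the 39 Nduf genes, coloured by group, with standard errors as bars and a dashed line where both steps are equal. Ndufaf4 lies far to the right at 1.94 and -0.01, and the long bars belong to genes whose replicates stand apart. The labelled Ndufs4, Ndufa6 and Ndufs8 lie left of 0, as do unlabelled genes such as Ndufa3, Ndufaf3 and Ndufb11.

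After day 4 the members moved in both directions and mostly little. From day 4 to day 6, 5 were called higher, against 15.3% of all genes (Ndufs3, Ndufs8, Ndufa9, Ndufv3 and Ndufb11), and 4 lower, against 14% of all genes (Ndufb7, Ndufa5, Ndufa8 and Ndufc2). The balance of these calls turned with median scaling, to 2 higher, against 13% of all genes, and 5 lower, against 14.6% of all genes. With the replicate block it was 6 higher, against 1944 of all 9558 genes, and 8 lower, against 21% of all genes. From day 6 to day 8, 0 members were called higher, against 7.54% of all genes, and 2 lower, against 5.45% of all genes, namely Ndufv1 (-0.27 ± 0.08) and Ndufb7 (-0.29 ± 0.09), with 6 of either direction at an unadjusted p under 0.05. With the block 4 were lower, against 10.6% of all genes, Ndufaf4 (-0.33 ± 0.11) and Ndufaf7 (-0.36 ± 0.09) being added. In limma 0 members were called from day 8 to day 10, from day 10 to day 14 or from day 14 to day 18, where 5, 4 and 0 had an unadjusted p under 0.05, and where 3.95%, 2.16% and 0.481% of all genes were called. With the block Ndufa8 was called lower from day 8 to day 10 (-0.34 ± 0.08, adjusted p = 0.0138), against 5.01% of all genes.

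Day 18 was also set against the earlier high points. Against day 6, 3 members were called higher, against 18% of all genes (Ndufa1, Ndufa3 and Ndufb3), and 4 lower, against 18.5% of all genes (Ndufv1, Ndufa9, Ndufaf4 and Ndufaf7). Median scaling gave 2 higher, against 15.5% of all genes, and 7 lower, against 18.5% of all genes, and the replicate block 7 higher and 11 lower, against 22.9% and 25.4% of all genes. Against day 4, in a comparison chosen after the day means had been seen, 5 were higher, against 23.7% of all genes (Ndufa1, Ndufa3, Ndufb3, Ndufs7 and Ndufv3), and 8 lower, against 26.8% of all genes (Ndufv1, Ndufv2, Ndufa8, Ndufb7, Ndufc2, Ndufaf4, Ndufaf7 and Ndufa4). Here median scaling gave 1 higher, against 21.5% of all genes, and 12 lower, against 28.6% of all genes. With the block 8 were higher, against 27.7% of all genes, and 11 lower, against 33.1% of all genes. The median change from day 4 to day 18 was 0.06 for subunits, with 5 called in each direction, and -0.25 for assembly factors, with 2 of 5 called lower, beside -0.05 over all genes. The day with the highest mean was day 4 for 11 subunits, day 6 for 10 and day 18 for 11, and the lowest was day 0 for 25 and day 2 for 7.

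Ndufa4 and Ndufs5-ps followed the rise as well. Ndufa4, a bright probe with arrays between 13.26 and 14.05, rose by 0.42 ± 0.07 between day 0 and day 18 (limma adjusted p = 3.81e-05) after it had fallen by 0.29 since day 4 (SE 0.07, adjusted p = 0.00205). Ndufs5-ps rose by 1.52 ± 0.12 (adjusted p = 8.16e-10), a value that may in part be that of Ndufs5.

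Genes of the same pathway were counted from lists drawn up from general knowledge. Of 9 measured complex I assembly factors with other symbols 7 were called higher on day 18 than on day 0, with a median change of 0.90. Foxred1, an oxidoreductase-like factor, rose by 1.82 and Ecsit, of the membrane arm assembly complex that also holds Ndufaf1, by 1.58, whereas Dmac1 (0.12) and Dmac2 (0.06) were not called. Between day 0 and day 18, 3 of 3 complex II genes, 6 of 8 of complex III, 11 of 13 of complex IV and 13 of 16 of complex V were called higher, with medians of 1.59, 1.12, 0.97 and 0.66. The complex II median is the value of Sdhd (1.59 ± 0.66, limma adjusted p = 0.0466), whose replicates stood far apart. Cox8b of the complex IV list is also a brown adipocyte marker. In the 71 mitochondrial ribosomal protein genes 53 were called higher, with a median of 0.53. For each of these lists the share of all genes called higher on day 18 than on day 0 was 23.2%. Called lower were 1 complex IV gene, Cox7a2l (-0.48), and 2 ribosomal protein genes, Mrps17 (-0.21) and Mrpl23 (-0.25). The other lists had 0 genes called lower, against 34% of all genes. From day 4 to day 18, 39 of the 71 ribosomal protein genes were lower, against 26.8% of all genes. Another 6 were higher, against 23.7% of all genes, and the median was -0.29. The complex I subunits had 5 calls in each direction and a median of 0.06.

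**Figure D5:**
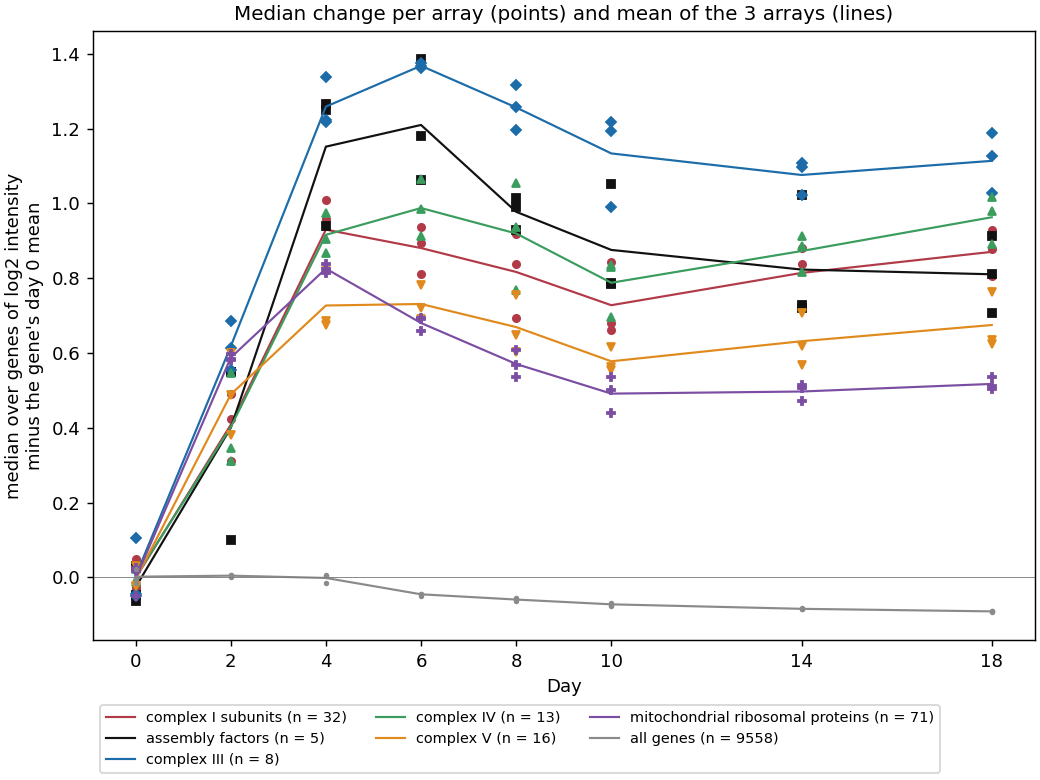
Median over the genes of a list of the log2 intensity minus each gene's day 0 mean (vertical axis) against day, with a point per array and a line through the mean of the 3 arrays. All mitochondrial lists rise by day 4, the ribosomal protein list comes down to about 0.5 by day 18 and complex I subunits stay between 0.66 and 1.01 from day 4 on, while the line of all genes stays near 0.

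Among 9 measured regulators of mitochondrial biogenesis 7 were called higher on day 2 than on day 0, against 25% of all genes. Their median change was 0.64. On day 18 against day 0, 6 were called higher, against 23.2% of all genes, and 1 lower, against 34% of all genes. Ppargc1b, a coactivator of these genes, went from a mean of 5.14 on day 0 to 8.30 on day 2, 9.14 on day 4 and 8.20 on day 18. Esrra, an oestrogen-related receptor, went from 8.47 to 9.55, 9.90 and 9.76 on the same days. Nrf1 was the gene called lower, at 8.29 on day 0, 8.67 on day 2, 8.11 on day 4 and 7.74 on day 18 (limma adjusted p = 5.53e-05 for day 18 against day 0). The coactivator Ppargc1a (-0.03, limma adjusted p = 0.975) and Gabpb1 (-0.002, adjusted p = 0.993) were not called on day 2 against day 0. Gabpb1 (-0.14) and Tfam (0.18) were not called on day 18 against day 0, where Ppargc1a was higher by 1.63 (limma adjusted p = 0.0401). Levels of different probes are not on a common scale, so only changes within a gene are compared.

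The 7 subunits with the YY1 letters, shown above, had day 18 changes from 0.15 for Ndufs4, the lowest of all subunits, to 1.18 for Ndufa9, with Ndufa3 at 0.71, Ndufs6 at 0.75, Ndufc1 at 1.03, Ndufb8 at 1.10 and Ndufs7 at 1.15. No common size of change was seen among them. The genes with the NRF1 letters were as spread, at 1.08 for Ndufaf4, 0.42 for Ndufa8 and 0.37 for Ndufaf5, and in the step to day 2 at 1.94, 0.49 and 0.11.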

How the data were processed

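The authors deposited probe intensity on a linear scale, neither background-subtracted nor normalised, for 25697 probes on 24 arrays, with a detection p-value per probe and array, per the file headers. A second deposited table of intensity, normalised in a way the labels do not state, served as an alternative. GenomeStudio 2011.1 is named in the submitters' processing notes. There were 0 value columns of other samples.

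Intensities were corrected and quantile normalised with neqc (limma 3.58.1, R 4.3.3, offset 16), which compresses differences near background. Probes detected at p under 0.05 on at least 3 arrays were kept (45.5% to 48.8% of probes were detected per array), and each gene took its probe with the highest mean, giving 9558 genes. All 39 members were detected on all 24 arrays. A limma fit with a mean per day on 24 arrays (16 residual degrees of freedom) gave the F test and 16 contrasts, with Benjamini-Hochberg adjustment over all genes. It was tested on simulated data with independent noise in each array, which held no differences between replicate numbers. Precision is limited by having 3 arrays a day.

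Replicate numbers, taken from the labels, were checked for pairing: deviations from the day means correlated at 0.251 to 0.762 (median 0.528) in all 84 pairs of arrays with the same number, across genes, which are not independent. They were therefore treated as pairing the arrays, and the fit with the number as a block is quoted beside the counts it moved and the calls of named genes it changed.

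Members, lists and rules were chosen with earlier results of these data known. Genes named with values were core subunits, assembly factors, Ndufa4, Ndufab1, the 4 accessory subunits with the largest and the 4 with the smallest span, and those called against the majority. Others named were chosen after their values were seen. Alternatives were the background correction, scaling, detection filter, probe rule, the authors' table, the block and leaving out each array.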

Additional observations from a re-analysis of the deposited data

How the results depend on the processing

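For the genes named by the rule above, no change between day 0 and day 18 reversed its sign under the alternatives run. Other genes named with values were not followed in this way. Among them was Ndufb11, whose probes gave 0.28 and -0.32 for that change. The balance of calls from day 4 to day 6 turned from 5 higher and 4 lower to 2 and 5 with median scaling and to 6 and 8 with the replicate block. Without background correction 5 members rose more from day 2 to day 4 than from day 0 to day 2. With median scaling 0 members were lower on day 2 than on day 0, 2 higher on day 6 than on day 4, 7 lower on day 18 than on day 6 and 1 higher on day 18 than on day 4. On the mean of all detected probes 0 members were lower on day 2 than on day 0. With the replicate block 2 were lower on day 2 than on day 0, 8 lower on day 6 than on day 4, 7 higher and 11 lower on day 18 than on day 6, 8 higher on day 18 than on day 4, 3 rose more before day 2 and 7 rose more after it. It also gave 4 in place of 2 lower on day 8 than on day 6 and 1 in place of 0 lower on day 10 than on day 8. Leaving out each array in turn gave 31 to 35 members changed over the course, 20 to 25 higher and 0 to 1 lower on day 2 than on day 0, 23 to 26 higher on day 4 than on day 2, 28 to 31 higher on day 4 than on day 0, 3 to 5 higher and 1 to 5 lower on day 6 than on day 4, 2 to 4 higher and 3 to 6 lower on day 18 than on day 6, 30 to 33 higher on day 18 than on day 0, and 3 to 6 higher and 8 to 9 lower on day 18 than on day 4. The lower call of day 2 was lost without replicate 1 of day 0. The lower calls of day 6 against day 4 came to 1 without replicate 1 of day 6 and to 2 without replicate 1 or 3 of day 4 or replicate 2 or 3 of day 6; the higher ones came to 3 without replicate 2 of day 4 or replicate 2 or 3 of day 6. The higher calls of day 18 against day 4 came to 3 without replicate 2 of day 4 or replicate 1 of day 18. Ndufa13 was called on day 18 against day 0 without background correction (adjusted p = 0.0335), with normexp fitted on all probes by the saddle-point method, an alternative added after seeing the data (0.0404), on the authors' table (0.0447), among genes detected on all arrays (0.0458), and without replicate 2 of day 8 (0.0478) or replicate 3 of day 18 (0.0113), Ndufs4 without background correction (0.0495) and without replicate 1 of day 0 (0.036), and Ndufb4 without replicate 2 of day 0 (0.0423) or replicate 1 of day 18 (0.0301). The subunits' median change between day 0 and day 18 ranged from 0.85 to 1.01 over all alternatives. A normexp fit by moments could not be made, since its variance came out negative on 24 of 24 arrays, and a block for the slide was not run because the files used give no slide. Members whose signal lies near the lowest signal of a detected probe, 4.75 to 4.91, have compressed differences; the lowest member array was at 5.01.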

Other observations

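A wide spread between replicates of a day was also present in other respiratory genes that were measured. On day 0 the SD over 3 arrays was 1.08 for Sdhd of complex II, 0.88 for Atp5a1 of complex V, 0.62 for Cox7b of complex IV, 0.51 for Uqcrb of complex III and 0.77 for the coactivator Ppargc1a. Sdhb and Sdhc, of the same complex as Sdhd, had SDs of 0.22 and 0.04. Probes of the same gene also differed in this respect: the change of Ndufs4 between day 0 and day 18 had a standard error of 0.08 with the probe used and of 0.39 with another.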
